A study of Mus musculus with 4 samples.

Results

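The genes described here are 39 lysosomal genes, chosen by symbol from a fixed list of membrane proteins, proteases, glycosidases, lipid hydrolases and lipid-handling proteins, proton pump subunits and transcription factors. All 39 symbols were found among the 24421 genes in the count files, and every one had a count. The RNA came from R1 cells, a line of mouse embryonic stem cells (ESCs), sequenced with the Illumina TruSeq kit. Undiff (n = 2) was ESCs kept with leukaemia inhibitory factor (LIF), a cytokine that holds ESCs in the pluripotent state, and the labels call the same samples embryoid bodies. Day4 (n = 2) was embryoid bodies, floating aggregates of ESCs, grown for 4 days without LIF and then for 4 days with retinoic acid (RA), at 2 µM in the methods and 2 mM in the labels. Both states are 1 cell line with no altered allele named in the labels, and Day4 differs from Undiff in time in culture, LIF, aggregation and RA together. Embryoid bodies grown without RA were not analysed here. The libraries held between 32099074 and 47730944 fragments on genes.

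The lysosome is the acidic compartment in which cells break down proteins, sugar chains and lipids taken up from outside or delivered by autophagy. Its hydrolases are made in the endoplasmic reticulum, tagged with mannose 6-phosphate and carried to the lysosome by receptors that bind the tag, while the vacuolar proton pump (V-ATPase) keeps the lumen acidic and heavily glycosylated membrane proteins such as LAMP1 and LAMP2 line the limiting membrane. The transcription factors TFEB and TFE3, of the MiT/TFE family, bind E-box letters in the promoters of many lysosomal genes, and loss of single hydrolases gives the lysosomal storage diseases.

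The promoters are shown first because the E-box is the sequence through which TFEB and TFE3 are known to bind. RefSeq windows of 250 bases before to 50 bases after the start site (GRCm38.p6, the mm10 assembly) were found for 35 of the 39 genes, 41 windows in all, and none was found for Asah1, Ctsb, Ctsh and Npc1. The letters CACGTG were in 13 of the 41 windows (31.7%), against 7.15% of the 32851 windows of all genes and 8.82% of the windows of the genes tested. The longer TCACGTGA, which contains CACGTG, was in 6 windows (14.6%), against 0.974% of all windows and 1.44% of the windows of the genes tested. The full CLEAR palindrome, which is TCACGTGA with a G before and a C after it, was in 0 of the 41 windows. It was in 0.326% of all windows and 0.523% of those of the genes tested, so rare that its absence from 41 windows says little. Each of these strings reads the same on both strands. The stretches below hold these letters in capitals, 5′ to 3′ on the strand of the gene. Lamp1 (chr8:13159080-13159171, plus strand) is shown for its 4 boxes, centred 58, 42, 25 and 12 bases before the start site. Mcoln1 (chr8:3500428-3500499, plus), Ctsa (chr2:164833741-164833803, plus), Gla (chrX:134601174-134601252, minus) and Atp6v0d1 (chr8:105566042-105566087, minus) are shown for the 8-letter form. Ctsa had 2 windows, and the stretch shown lies downstream of the first annotated base of the gene (chr2:164832873), at a later start site. Which start site these cells used was not tested. Ctsf (chr19:4855066-4855111, plus) and Naglu (chr11:101070001-101070046, plus) are shown because they were the DEGs of the list with a box.
Lamp1: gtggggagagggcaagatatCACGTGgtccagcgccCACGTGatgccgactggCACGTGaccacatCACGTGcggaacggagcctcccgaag
Mcoln1: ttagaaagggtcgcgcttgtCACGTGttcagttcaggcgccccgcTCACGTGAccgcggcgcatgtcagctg
Ctsa: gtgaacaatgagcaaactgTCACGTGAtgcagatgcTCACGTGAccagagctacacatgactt
Gla: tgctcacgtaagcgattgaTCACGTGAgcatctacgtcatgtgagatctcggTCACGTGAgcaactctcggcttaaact
Atp6v0d1: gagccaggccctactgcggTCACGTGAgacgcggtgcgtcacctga
Ctsf: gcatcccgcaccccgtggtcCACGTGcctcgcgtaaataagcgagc
Naglu: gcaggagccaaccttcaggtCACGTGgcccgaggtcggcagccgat

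Among the genes with a window, CACGTG was in 2 of the 7 higher in Day4, in 0 of the 3 lower in Day4, and in 11 of the 25 that were not differentially expressed. The 6 genes with TCACGTGA, which were Atp6v0d1, Atp6v1a, Ctsa, Ctsd, Gla and Mcoln1, all belonged to the last set. That set rests on a 2-fold limit and does not mean unchanged. By the adjusted p-value alone all 6 differed, with Atp6v0d1 and Ctsa higher in Day4 and the others lower. Gla, at a log2 fold change of −0.98, lay just short of the limit. A match of letters is a description of the window and was not tested against binding.

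**Figure D1:**
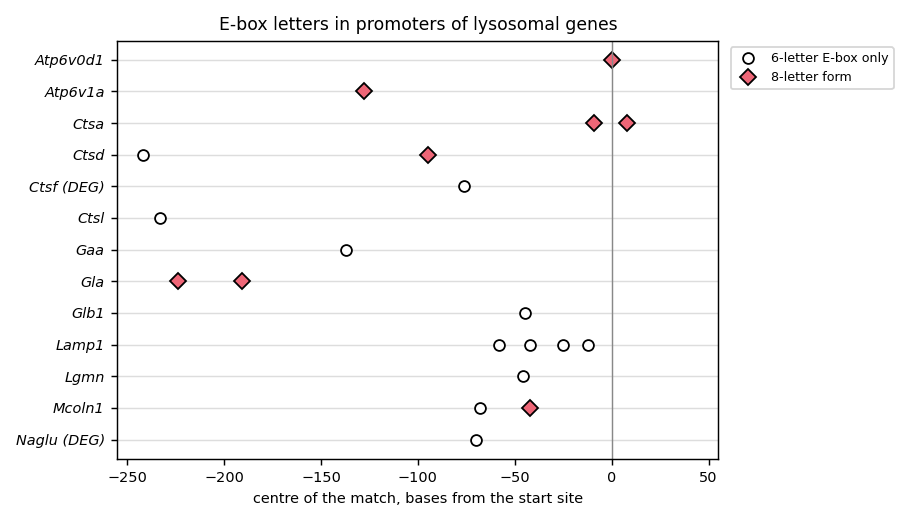
Position of E-box letters in the promoters of the 13 lysosomal genes that hold them, as bases from the start site at 0; open circles are the 6-letter form alone, filled diamonds the 8-letter form, and a gene name followed by DEG was differentially expressed. Lamp1 has 4 boxes between 58 and 12 bases before the start site, and only Ctsf and Naglu are DEGs.

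The lysosomal genes did not move as a block between the states: 8 were higher in Day4, 3 were lower, and 28 were not differentially expressed, in a comparison where 42.8% of all genes tested were. Lamp2, Smpd1 and Ctsf rose most, and Cd68, Manba and Ctsc were those that fell. A differentially expressed gene (DEG) passed edgeR's quasi-likelihood test at an adjusted p-value of 0.05, changed 2-fold or more and averaged 5 normalized counts or more, where a normalized count is the count scaled to a common library size. The 8 were 20.5% of the list, where 22.2% of all 19891 genes tested were DEGs higher in Day4, and the 3 were 7.69%, where 20.6% of all were DEGs lower in Day4. Since 38 of the 39 reached the minimum of 5, the nearer comparison is with the 16472 genes that did, of which 26.8% were higher and 24.9% lower. Both shares of the list were below these, a difference that was not tested.

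By the adjusted p-value alone, 17 of the genes were higher in Day4 and 20 lower, against 37.9% and 37.7% of all genes, so that most differences were small ones measured closely. In the normalized counts, both Day4 libraries lay above both Undiff libraries for 17 genes and below them for 20, where 42.7% of all genes lay above and 42.7% below, and only Fuca1 and Ctsk overlapped. The median log2 fold change over the 39 was −0.13, beside −0.03 over all genes tested. Added up, the 39 genes took 4001 and 3861 CPM in the Undiff libraries and 4385 and 4329 in the Day4 libraries. CPM here are counts scaled by library sizes adjusted with TMM, the scaling used in the fit, and not by the raw library totals. On this scale the total lay between 1.08-fold and 1.14-fold higher in Day4. In bulk RNA, fewer cells that express a gene and less RNA per cell cannot be told apart. Only Ctss had a mean normalized count under 5.

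**Figure D2:**
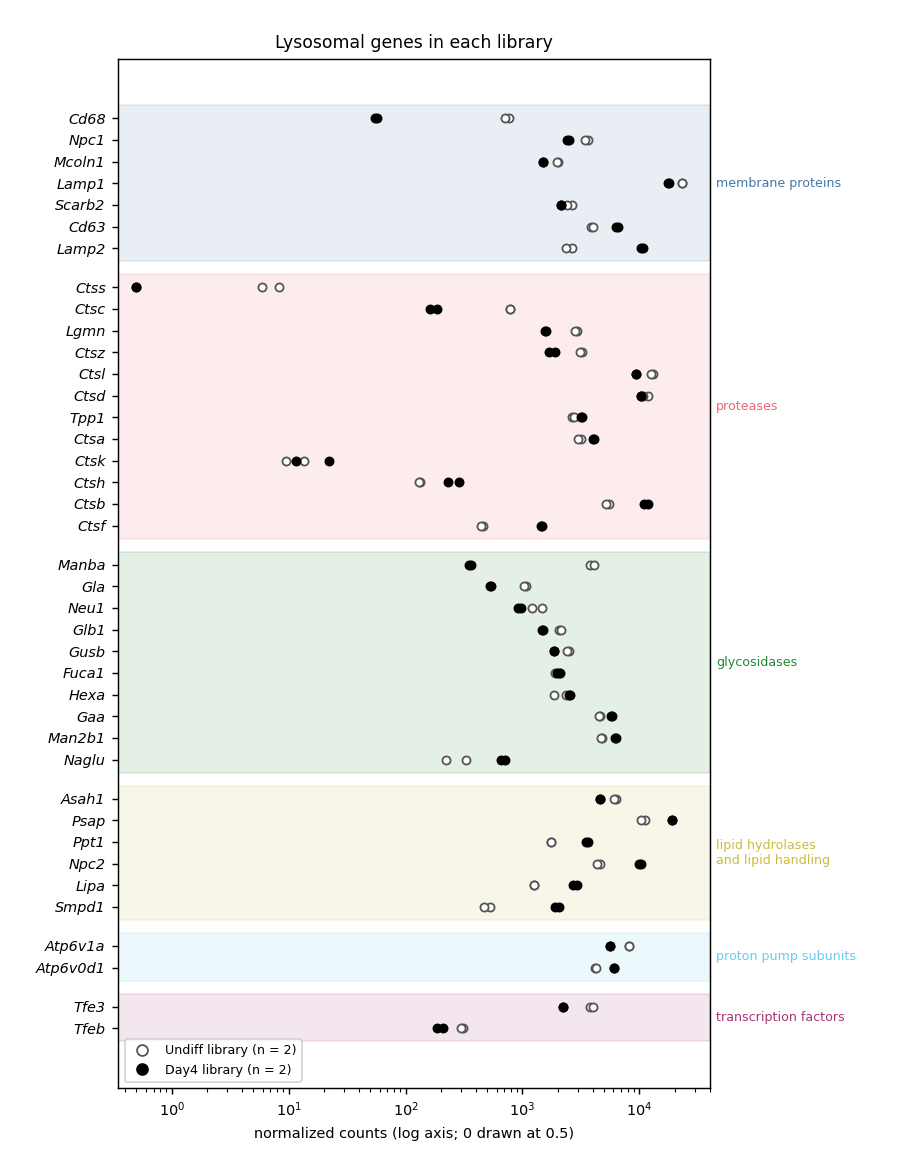
Normalized counts (log axis) of the 39 lysosomal genes in each library, in 6 role groups shaded by colour; open points are the 2 Undiff libraries, filled points the 2 Day4 libraries, and a count of 0 is drawn at 0.5. Lamp2 and the lipid genes other than Asah1 lie to the right in Day4, Cd68, Manba, Ctsc and Ctss to the left, and the points of most other genes lie close together.

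The membrane proteins changed in both directions, with Lamp2 higher and Cd68 lower. Lamp2 (chrX:38401357-38456454, minus strand) encodes a glycoprotein of the limiting membrane needed for fusion with autophagosomes and for chaperone-mediated autophagy. It had 2674 and 2348 normalized counts in Undiff and 10640 and 10401 in Day4. Both Day4 libraries were far above both Undiff libraries, a log2 fold change of 2.06 ± 0.06 (SE; adjusted p = 1.03e-12). Cd68 (chr11:69664213-69666153, minus), a LAMP-family glycoprotein best known from macrophages, had 773 and 704 in Undiff and 54.3 and 56.8 in Day4. The states were well apart, and the gene fell by 3.73 ± 0.12 on the log2 scale (adjusted p = 4.15e-12).

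Since Cd68 is known from macrophages, 12 genes of macrophages and other blood cells were read beside it. None was a DEG higher in Day4, beside 22.2% of all genes tested. Spi1 and Itgam were lower, which is 16.7% of the 12 beside 20.6% of all. Their summed level was 6.96 and 7.54 CPM in Undiff and 2.51 and 2.50 CPM in Day4, and Cd68 alone had 20.7 and 18.8 CPM in Undiff. Itgam had 89 and 82 counts in Undiff and 2 and 5 in Day4, and Spi1 had 25 and 22 in Undiff and 1 and 0 in Day4, so both fell along with Cd68. Mrc1 had 95 counts in both Undiff libraries and 64 and 85 in Day4. After scaling these were 99.0 and 114 normalized counts in Undiff and 66.9 and 65.3 in Day4. It was thus also lower, by less than 2-fold (log2 fold change −0.68 ± 0.17). By the adjusted p-value alone, 4 of the 12 genes were lower in Day4 and 0 were higher, beside 37.7% and 37.9% of all genes tested. Of the 12 genes, 4 (Aif1, Tyrobp, Adgre1 and Cx3cr1) had at most 3 counts in every library. The rest were also barely counted. Ptprc had 2 and 5 counts in Undiff and 0 in both Day4 libraries. Csf1r had 8 and 8 in Undiff and 5 and 4 in Day4, and Cd14 had 7 and 10 in Undiff and 11 and 9 in Day4. Fcer1g had 8 and 5 in Undiff and 2 and 5 in Day4, and Lyz2 had 13 and 7 in Undiff and 2 and 8 in Day4. The part of such cells in the fall of Cd68 was not tested beyond these values.

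The other 5 membrane proteins were not DEGs. Lamp1, an abundant glycoprotein of the limiting membrane, had 23274 and 23039 normalized counts in Undiff and 17538 and 17847 in Day4, both Day4 values below both Undiff values, at a log2 fold change of −0.39 ± 0.04 (adjusted p = 3.58e-07). Cd63, a tetraspanin of late endosomes, lysosomes and exosomes, had a log2 fold change of 0.72 ± 0.05. Npc1, which moves cholesterol out of the lysosome, stood at −0.51 ± 0.05, Mcoln1, the calcium channel TRPML1, at −0.42 ± 0.05, and Scarb2 (LIMP-2), the carrier of glucocerebrosidase, at −0.24 ± 0.06. So 4 of these 5 leaned down, each by less than 2-fold.

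Of the 12 proteases, Ctsf and Ctsb rose and Ctsc fell. Ctsf (chr19:4855130-4860918, plus), the cysteine protease cathepsin F, had 464 and 444 normalized counts in Undiff and 1458 and 1434 in Day4. The libraries of a state lay close together, and the log2 fold change was 1.67 ± 0.07 (adjusted p = 4.15e-11). Ctsb (chr14:63122462-63145923, plus), cathepsin B, an abundant cysteine protease, had 5461 and 5196 in Undiff and 11837 and 11034 in Day4. The states did not overlap, and the log2 fold change was 1.10 ± 0.05 (adjusted p = 9.26e-11). Ctsc (chr7:88278085-88310888, plus), cathepsin C, a dipeptidyl peptidase that activates granule serine proteases, had 782 and 789 in Undiff and 163 and 187 in Day4. Its Undiff libraries were nearly equal and far above Day4, and it fell by 2.15 ± 0.09 on the log2 scale (adjusted p = 7.68e-11).

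The 9 other proteases included Ctsl and Ctsd, the most highly counted ones in Undiff, while Ctsb had the most normalized counts of the proteases in Day4. Ctsd, the aspartic protease cathepsin D, had 11789 and 10803 normalized counts in Undiff and 10335 and 10299 in Day4, nearly level between the states (log2 fold change −0.13 ± 0.05, adjusted p = 0.0197). Ctsl, cathepsin L, had 13156 and 12633 in Undiff and 9305 and 9387 in Day4, lower in both Day4 libraries but by less than 2-fold (−0.46 ± 0.04). Ctsh, an aminopeptidase, came nearest to the 2-fold limit from below, with 132 and 130 in Undiff and 286 and 233 in Day4 (0.96 ± 0.14, adjusted p = 2.60e-05), and it passed without Day4 replicate 2 at 1.09. Lgmn, the asparaginyl endopeptidase that processes other cathepsins, had a log2 fold change of −0.87 ± 0.05, and Ctsz, a carboxypeptidase, one of −0.82 ± 0.06. Ctsa, the protective protein of neuraminidase and beta-galactosidase, had one of 0.40 ± 0.05, and Tpp1, a tripeptidyl peptidase, one of 0.25 ± 0.05.

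Ctsk and Ctss, cathepsins known from osteoclasts and from antigen-presenting cells, were barely counted. Ctsk had 13.5 and 9.57 normalized counts in Undiff and 11.5 and 22.3 in Day4. Its states overlapped, with a log2 fold change of 0.59 and a 95% interval of −0.39 to 1.58 (adjusted p = 0.253), so a 2-fold rise lay within what these counts allow. Ctss had 8 and 5 counts in Undiff and 0 in both Day4 libraries. Against a floor of 3 counts per library this was at least 2.63-fold lower (adjusted p = 0.00214), at a mean under the minimum for a DEG.

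Among the 10 glycosidases, Naglu rose and Manba fell. Manba (chr3:135485611-135571404, plus), the beta-mannosidase that acts late in the breakdown of N-linked sugar chains, had 3764 and 4111 normalized counts in Undiff and 352 and 363 in Day4. It fell by 3.46 ± 0.07 on the log2 scale (adjusted p = 4.44e-14), with the Day4 libraries far below either Undiff library. Man2b1, the alpha-mannosidase of the same pathway, had a log2 fold change of 0.40 ± 0.04, so the mannosidases differed in direction. Naglu (chr11:101070012-101077672, plus), which acts on heparan sulfate, had 329 and 224 in Undiff and 705 and 653 in Day4. Its Undiff libraries were further apart than those of most of the list, but both lay below Day4, and the log2 fold change was 1.28 ± 0.13 (adjusted p = 5.78e-07).

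Of the 8 glycosidases that were not DEGs, Gla, the alpha-galactosidase A of Fabry disease, was the nearest to the limit. It had 1065 and 1041 normalized counts in Undiff and 537 and 532 in Day4, a clear separation just short of 2-fold (log2 fold change −0.98 ± 0.07, adjusted p = 1.11e-08), and with DESeq2's size factors it passed at −1.02. Neu1, the lysosomal sialidase, stood at −0.49 ± 0.08, Glb1, the beta-galactosidase, at −0.49 ± 0.05 and Gusb, the beta-glucuronidase, at −0.41 ± 0.05. Gaa, the alpha-glucosidase that degrades glycogen, stood at 0.35 ± 0.04 and Hexa, the alpha subunit of beta-hexosaminidase, at 0.27 ± 0.08. Fuca1, the alpha-fucosidase, overlapped between the states, with 2048 and 1912 in Undiff and 2100 and 1985 in Day4. Its log2 fold change was 0.04, with a 95% interval of −0.08 to 0.16 (adjusted p = 0.502).

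The lipid group was the one in which most genes rose: 4 of 6 were DEGs higher in Day4 and 0 were lower, beside 22.2% and 20.6% of all genes tested. Npc1, which also handles lipid and leaned down, was grouped with the membrane proteins. Summed over the 6 genes, the level was 686 and 649 CPM in Undiff and 1134 and 1116 CPM in Day4, 1.69-fold higher by the means. Smpd1 (chr7:105554360-105558389, plus), the acid sphingomyelinase, had 530 and 471 normalized counts in Undiff and 2034 and 1903 in Day4. The Day4 libraries were well above, at a log2 fold change of 1.97 ± 0.07 (adjusted p = 1.70e-11). Lipa (chr19:34492318-34527474, minus), the acid lipase that frees cholesterol from its esters, had 1262 and 1248 in Undiff and 2725 and 2944 in Day4, with no overlap (1.18 ± 0.06, adjusted p = 3.08e-10). Npc2 (chr12:84754562-84773152, minus), the soluble protein that hands that cholesterol to NPC1, had 4619 and 4374 in Undiff and 10373 and 9963 in Day4. It rose by the same amount as Lipa to 2 decimals, at 1.18 ± 0.05 (adjusted p = 2.96e-11). Ppt1 (chr4:122836242-122859175, plus), the palmitoyl-protein thioesterase, had 1757 and 1740 in Undiff and 3671 and 3482 in Day4, well apart but just past the 2-fold limit (1.03 ± 0.05, adjusted p = 3.90e-10). With DESeq2's size factors its log2 fold change was 0.99, so that it was no longer a DEG.

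The remaining lipid genes were Psap and Asah1. Psap, the precursor of the saposins that present sphingolipids to their hydrolases, had 11220 and 10358 normalized counts in Undiff and 19080 and 18927 in Day4 (0.82 ± 0.04, adjusted p = 9.51e-10), the same direction as the 4 DEGs at under 2-fold. Asah1, the acid ceramidase, was the exception in direction, with 6282 and 6109 in Undiff and 4572 and 4564 in Day4 (−0.44 ± 0.04, adjusted p = 5.07e-07).

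The proton pump subunits and the transcription factors held no DEG. Atp6v0d1, a subunit of the membrane sector, had 4185 and 4255 normalized counts in Undiff and 6008 and 6095 in Day4 (0.52 ± 0.04, adjusted p = 8.89e-08). Atp6v1a, the catalytic subunit of the cytosolic sector, had 8224 and 8103 in Undiff and 5580 and 5583 in Day4 (−0.55 ± 0.04, adjusted p = 3.06e-08). The subunits thus leaned in opposite directions. Tfe3 had 3804 and 4005 in Undiff and 2210 and 2200 in Day4 (−0.82 ± 0.05, adjusted p = 2.66e-09). Tfeb had 307 and 298 in Undiff and 208 and 187 in Day4 (−0.63 ± 0.11, adjusted p = 1.28e-04). Both factors were lower in both Day4 libraries, each by less than 2-fold.

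**Figure D3:**
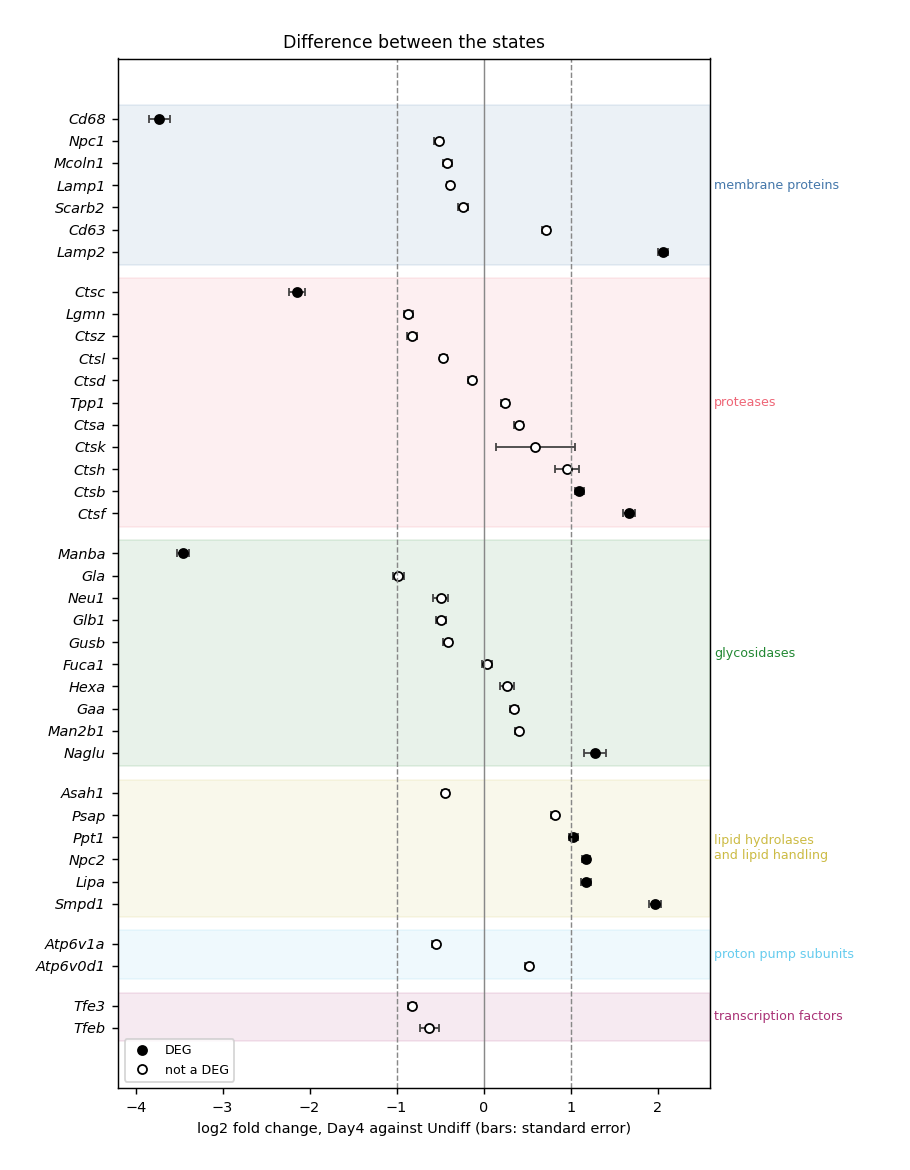
Log2 fold change of Day4 against Undiff with its standard error for 38 of the lysosomal genes (Ctss, at 0 in Day4, is left out), grouped and shaded by role; filled points are DEGs, open points are not, and dashed lines mark a 2-fold change. Cd68 at −3.73 and Manba at −3.46 lie furthest to the left, Lamp2 at 2.06 and Smpd1 at 1.97 furthest to the right, and 4 of the 6 lipid genes lie past the right-hand line.

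Levels were then set per kilobase of exon, which allows genes to be compared with each other. Lamp1 was the highest of the 39 in both states, at 279 and 276 CPM per kilobase in Undiff and 210 and 214 in Day4, with both the union of exons and the shortest principal transcript as the length. Lamp2 had 14.2 and 12.4 in Undiff and 56.4 and 55.1 in Day4, and moved from place 29 to place 8 of the 39 with the union of exons. Ctsl is left without a place because its exon union is 6168 bases and its shortest principal transcript 1971 bases.

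In several pairs of partner genes the partners changed in opposite directions. The change of such a ratio between states does not depend on the length. The levels of Lamp2 and Lamp1, and of Smpd1 and Asah1, came nearer to each other, and those of the other pairs moved apart. Lamp2 stood at 0.0508 and 0.0451 of the level of Lamp1 per kilobase in Undiff and at 0.268 and 0.258 in Day4, a 5.49-fold rise of the ratio. Npc2, which passes cholesterol to Npc1, stood at 2.00 and 2.03 times the level of Npc1 in Undiff and at 6.79 and 6.25 times in Day4. Smpd1 stood at 0.0971 and 0.0887 of Asah1, which acts on the ceramide that sphingomyelinase releases, and at 0.511 and 0.479 in Day4. Atp6v0d1 stood at 1.33 and 1.37 times the level of Atp6v1a in Undiff and at 2.81 and 2.85 times in Day4. The ratios did not overlap between the states for these 4 pairs, and they rest on genes already described. Further pairs were computed and none overlapped, not even Tfe3 to Tfeb, whose ratio in Day4 was 0.87-fold that in Undiff. The lack of overlap is thus not particular to these 4.

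**Figure D4:**
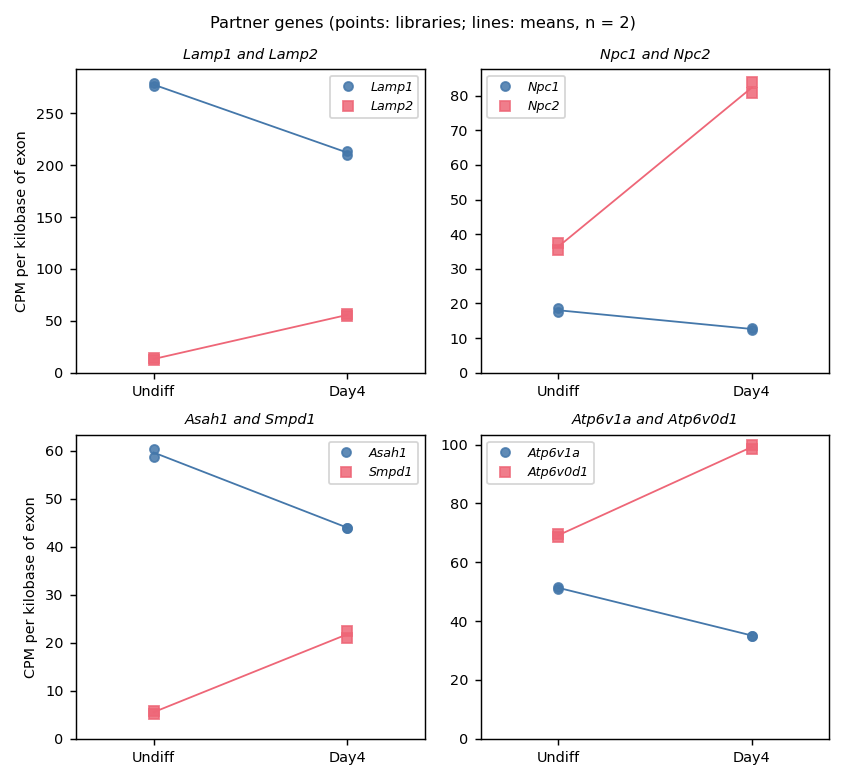
CPM per kilobase of exon for 4 pairs of partner genes in each library (points, 2 per state) with lines joining the means. Lamp1 stays far above Lamp2 while Lamp2 rises, and the partners of each of the other pairs change in opposite directions.

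Outside the 39, 101 further genes of the lysosomal pathway were read in the same fit, and 100 had a count. Of these, 14 were DEGs higher in Day4 and 11 lower (14% and 11%, beside 22.2% and 20.6% of all genes), and the median log2 fold change was −0.02. Among 23 other hydrolases 5 rose and 2 fell, from Arsb, which acts on dermatan sulfate, at 3.69 ± 0.12 to Scpep1, a serine carboxypeptidase, at −1.61 ± 0.04. Among 21 other membrane proteins and transporters 4 rose and 3 fell, from Tmem9 at 1.99 ± 0.05 to Laptm5, known from blood cells, at −5.48 ± 0.13. These lists therefore also held genes in both directions.

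Of 21 other V-ATPase subunits, 20 had a count, with 3 higher and 1 lower, from Atp6v0e2 at 1.76 ± 0.07 to Atp6v1c2 at −2.22 ± 0.57. Atp6v1c2 rested on few counts, with 21 and 13 in Undiff and 1 and 8 in Day4. By the adjusted p-value alone, 6 of 15 genes that sort hydrolases to lysosomes were higher in Day4 and 8 lower. Sort1, at 0.98 ± 0.05, came just short of 2-fold. As DEGs, 0 of the 15 were higher and 3 lower (0% and 20%, beside 22.2% and 20.6% of all genes tested). These were M6pr, the cation-dependent mannose 6-phosphate receptor, at −1.15 ± 0.04, Gga3, an adaptor for that receptor, at −1.12 ± 0.05, and Gnptab, the enzyme that starts the mannose 6-phosphate tag, at −1.03 ± 0.05. Of 17 genes of MiT/TFE factors and nutrient signalling at the lysosome, Rragc was higher at 1.16 ± 0.05 and Rragd at −1.50 ± 0.06 and Fnip2 at −1.14 ± 0.06 were lower. Rragc and Rragd, which encode alternative partners in the Rag GTPase dimer, thus moved in opposite directions. Of 4 cystatins, which inhibit cathepsins, Cst3 was higher at 1.12 ± 0.05.

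**Figure D5:**
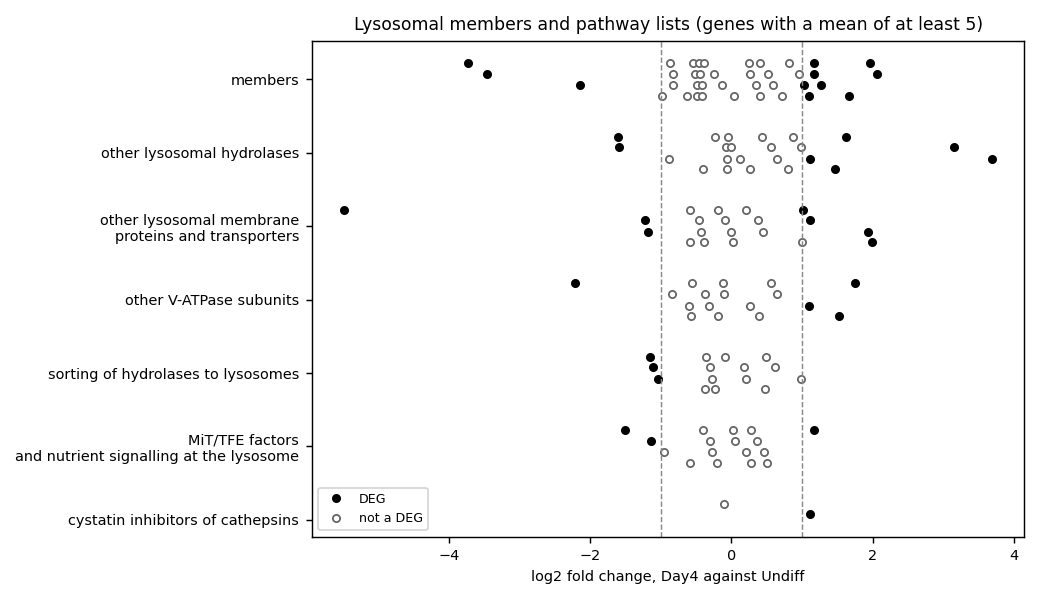
Log2 fold change of Day4 against Undiff for the lysosomal members and for 6 lists of other lysosomal genes, 1 point per gene that averaged 5 normalized counts or more; filled points are DEGs, open points are not, and dashed lines mark a 2-fold change. Every list but the sorting genes and the cystatins holds DEGs on both sides. The sorting genes hold 3 on the lower side and 0 on the higher side, where Sort1 lies just short of the line at 0.98.

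Other cell type markers changed between the same libraries, and their part in the lysosomal values was not tested. All 9 markers of pluripotent cells fell, from a summed 4723 and 4720 CPM to 24.3 and 21.1 CPM. Of 10 fibroblast and mesenchyme markers 9 rose and 1 fell, from 80.8 and 74.0 CPM to 1988 and 1830 CPM. Of 10 visceral endoderm markers 5 rose and 3 fell, and their sum went from 130 and 145 CPM to 42.6 and 41.3 CPM. In Undiff that sum was mostly Lrp2, at 95.6 and 105 CPM, and Cubn, at 28.3 and 33.5 CPM, and both fell. The 5 that rose (Afp, Ttr, Apoa1, Sox17 and Foxa2) stood far lower, so the sum does not follow them. Of 10 neural markers 3 rose and 5 fell, from 358 and 363 CPM to 295 and 296 CPM. Fragments on no annotated gene were 12.1% and 13.2% in Undiff and 7.50% and 7.74% in Day4, a further difference between the states whose part was not tested. In addition, 8 of the 39 genes overlap another counted gene on the genome (Lamp1, Scarb2, Ctsa, Ctsb, Ctsz, Hexa, Glb1 and Ppt1), and the methods name only Direct RNA libraries as counted by strand, without stating the option for TruSeq genes, so their counts are less certain where the overlapping gene is on the other strand or shares exons.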

How the data were processed

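Per the labels and methods, the authors used cutadapt for trimming and STAR 2.4.2a for alignment of TruSeq reads to mm10, and counted unique fragments per gene with htseq-count. The deposited values are raw counts, and replicates were grown and treated separately. Libraries held 32099074 to 47730944 counts on genes, and fragments assigned to no gene were left out. Counts of all 19891 genes with a count were fitted on state alone after TMM scaling (edgeR 4.0.16 quasi-likelihood test, R 4.3.3), with Benjamini-Hochberg adjustment over all of them. The DEG limits were an adjusted p-value of 0.05, a 2-fold change and an average of 5 normalized counts. SE is the log2 fold change divided by the square root of F. With 2 libraries per state an exact permutation test cannot go below p = 0.333, so p-values rest on the model. Levels per length used GENCODE exons of the same assembly, and promoters came from RefSeq. The members and lists were chosen with earlier results of these data known. All 39 members are accounted for, DEGs with the value in every library. From each pathway list the called genes with the highest and lowest change are named. Gga3, Fnip2 and Sort1, which was not called, were added after their values were seen. One gene of the pathway lists is not reported here. Alternatives included DESeq2 1.42.0, other scaling and filters, thinning and leaving out each library. On simulated counts for 19522 genes, the test recovered 200 of 200 changed genes. The planted changes were all well past the 2-fold limit, in well-counted genes, with the same spread between replicates for every gene. Recovery was therefore easy, and genes near the limit or with unequal replicates were not tested by it.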

Additional observations from a re-analysis of the deposited data

How the results depend on the processing

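The count of lysosomal DEGs was 8 higher and 3 lower, and over the alternatives in scaling, filtering, tool, depth, blocking and left-out libraries it lay between 7 and 9 higher and between 3 and 4 lower. Only no minimum fold change moved it by over 1.5 times, to 17 higher and 19 lower, and for the other pathway genes 40 higher and 39 lower, by the construction of that setting. The genes that crossed the limit stood close to 2-fold or to the minimum count. Ppt1 was lost with DESeq2's size factors, DESeq2, thinning, without Day4 replicate 1 and in a test against a 2-fold change (adjusted p = 0.235). Gla was gained with DESeq2's size factors, filterByExpr, DESeq2, thinning and without Day4 replicate 2, Ctsh with library totals and without Day4 replicate 2, and Ctss with no minimum count. Leaving out each library in turn gave 7 to 9 members higher and 3 to 4 lower, and 13 to 16 pathway genes higher and 11 to 12 lower. The sign of Fuca1 turned without Undiff replicate 2 (−0.0063, range to 0.0926 over left-out libraries) and that of Ctsk without Day4 replicate 2 (−0.055, range to 0.922), both overlapping between states. Over the values of single members under 13 alternatives (12 for Ctss), which leave out those with no minimum count or fold change, 490 kept direction and call, 8 came to pass the limits, 6 no longer passed and 2 changed sign.

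Same-numbered replicates did not deviate together (correlation −0.0073). This gave no sign of a shared effect of the replicate number, but it cannot show that the samples were unpaired. The replicate block gave 8 members higher and 3 lower, with 15 and 11 pathway genes. An edgeR fit with the older quasi-likelihood method, chosen after the data were seen, gave 8 and 3. No scaling moved the median of all genes by over 0.07. Ctsk had 8 to 29 counts per library, with 11 and 29 in Day4, and Ctss had at most 8, so their values rest on few counts and 2 libraries per state.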
